A study of Homo sapiens with 38 samples.

Results

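AP-1 and the classical immediate early genes were examined as a group of 10 genes, FOS, FOSB, FOSL1, FOSL2, JUN, JUNB, JUND, ATF3, EGR1 and IER2, out of 58425 genes with a matched transcript. The group was named by gene symbol, and the estimated reads and TPM (a level per length of transcript, scaled to the same total in every library) of all transcripts of each gene were summed in every library. The rule uses gene symbols and no measured value, but the group was proposed with earlier results of these data known. All 10 genes passed the filter on low counts in both fractions.

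AP-1 is a dimer of basic leucine zipper proteins. The FOS proteins need a JUN partner to bind DNA, the JUN proteins can also pair with each other, and ATF3 is a stress-induced partner that joins JUN proteins on related sites. The genes are called immediate early because serum, growth factors or stress switch several of them on within minutes through kinase cascades and factors already present in the cell, and their messages are short-lived, in part through AU-rich elements in the 3′ UTR. EGR1 is a zinc finger factor and IER2 a small nuclear protein of the same rapid response, while FOSL1 and JUND are the members best known for a lasting level in growing carcinoma cells.

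The study asked where Argonaute proteins, the carriers of microRNAs, act on nuclear RNA. RNA-seq was made from the nuclear and the cytoplasmic fraction of HCT116 cells, a human colorectal carcinoma line, in 5 genotypes with 3 libraries per genotype and fraction, 30 libraries in all. Another 8 samples were eCLIP libraries and are not analysed here. The groups were wild type (WT, passages 27 to 29), AGO1 knockout (passages 6 to 8), AGO2 knockout (passages 8 to 10), AGO1/2 double knockout (passages 9 to 11) and AGO1/2/3 triple knockout (passages 11, 12 and 14). No agent was given to any group. Each knockout genotype was 1 edited line and each library 1 passage of it, so genotype, clone and passage range cannot be told apart. The p-values therefore measure the spread between passages of a line.

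Short stretches of sequence were read for the exact letters of control elements. Variant sites and sites outside these stretches were not counted, so a gene without a match may still carry such an element. Among the 9 members with an entry in the RefSeq promoter table (GRCh38.p14, 250 bases before to 50 bases after each start), exact matches on both strands were sought to the AP-1 site TGACTCA, the cyclic AMP response element TGACGTCA and the CArG box bound by serum response factor. Of 35116 promoters, 4.95%, 1.85% and 1.29% held them. The matches in members are shown because they are the sites of the factors the group encodes or answers to, with each match in capitals. The EGR1 promoter held 2 CArG boxes, 105 and 83 bases before the start (chr5:138465364-138465393 and chr5:138465386-138465415, + strand). The JUND promoter held the cyclic AMP response element 200 bases before the start (chr19:18281805-18281832, − strand), and FOSL2 held an AP-1 site 4 bases after it (chr2:28392852-28392878, + strand).
EGR1 CArG box at 105: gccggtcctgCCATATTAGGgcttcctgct
EGR1 CArG box at 83: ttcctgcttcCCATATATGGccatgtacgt
JUND cyclic AMP response element: gccgcccccaTGACGTCAacccacaagg
FOSL2 AP-1 site: gccattgtagTGACTCAtctcgggcag

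In the 3′ UTRs of the main GENCODE transcripts, the pentamer ATTTA was found in 9 of 10 members (all but IER2) and in 67.8% of 19228 genes, and the longer AU-rich match TATTTAT in 7 of 10 members and in 31.8% of genes. Seed matches to 11 microRNAs were also counted, with bases 2 to 8 of the microRNA as the seed. Those of FOSL1 are shown, a member picked for its rise in the knockouts, the largest of the 10, and not for its number of matches. It carried 2 sites for miR-34a-5p (a match held by 15.6% of 3′ UTRs), 1 for miR-19b-3p (13.5%), 1 for miR-24-3p (15.8%) and 1 TATTTAT, all within 837 bases on the − strand of GRCh38. Each microRNA (RefSeq) has its seed in capitals, and each site the bases that pair with it. The matches are letters only, and no binding was measured at them here.
miR-34a-5p: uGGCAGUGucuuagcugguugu
FOSL1 site, chr11:65892541-65892567: ccttccagatCACTGCCacactctcca
FOSL1 site, chr11:65892440-65892466: tcaccagcccCACTGCCagcagcagca
miR-19b-3p: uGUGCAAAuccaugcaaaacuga
FOSL1 site, chr11:65892652-65892678: tctagcacaaTTTGCACtaaatcagag
miR-24-3p: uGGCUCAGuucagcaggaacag
FOSL1 site, chr11:65892864-65892885: ggcgcCTGAGCCctactccctg
FOSL1 TATTTAT, chr11:65892273-65892299: gggcagctgcTATTTATtttcctaaag

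The FOS 3′ UTR carried TATTTAT at 2 neighbouring places, the arrangement of a classical destabilising element, in its 806 bases on the + strand. JUND and ATF3 held no seed match to any of the 11 microRNAs. All other members held at least 1, and FOSL2 matched more of the 11 than FOSL1. Of those with matches, FOS, FOSB, JUNB, EGR1 and IER2 were called lower in cytoplasmic AGO1/2 knockout with all libraries. There FOSL1 was called higher, and FOSL2 and JUN were not called. A relation between matches and changes was not tested.
FOS TATTTAT, chr14:75282061-75282087: gtttttaattTATTTATtaagatggat
FOS TATTTAT, chr14:75282085-75282111: gattctcagaTATTTATatttttattt

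Libraries held 20431557 to 26536692 estimated reads in wild-type nuclei, 31252459 to 54097984 in knockout nuclei, 39476205 to 43281746 in wild-type cytoplasm and 66451720 to 79731793 in knockout cytoplasm. The edited genes followed the labels in part. AGO1 stood at 10.7 to 14.4 TPM in wild-type cytoplasm and at 0.807 to 1.02 TPM in the 9 cytoplasmic libraries with an AGO1 edit, whereas AGO2 stood at 31.1 to 39.8 TPM in wild type and still at 16.6 to 29.2 TPM in the 9 with an AGO2 edit. By the test on counts, however, cytoplasmic AGO2 was lower in the AGO2 knockout (−0.67 on the log2 scale), higher in the AGO1/2 knockout (0.31, edgeR adjusted p 0.00266) and not called in the AGO1/2/3 knockout (0.11, 0.264). AGO3 was at 6.62 to 9.53 TPM in wild-type and 8.02 to 9.33 TPM in AGO1/2/3 knockout cytoplasm, and on counts it was called higher there (0.34, edgeR adjusted p 0.00236). A message level does not show whether an edited message still codes for protein. The epithelial markers EPCAM, KRT8, KRT18 and KRT19 were at 42.1 TPM or more in every library, but VIL1 was at most 0.0773. The blood, endothelial and liver markers PTPRC, PECAM1 and ALB were at most 0.414 TPM, and CD68 and COL1A1 reached 3.98 and 6.21. In the AGO1/2 and AGO1/2/3 knockouts CDH1 and EPCAM were lower and CD68 higher in both fractions. KRT8, KRT18 and KRT19 were higher in the nuclei of both lines, by 1.0 to 1.38 on the log2 scale, and KRT8 and KRT19 also in AGO1/2/3 knockout cytoplasm (0.40 and 0.64). The part of these markers in the changes of the 10 genes was not tested. Fewer cells of a kind and less RNA per cell cannot be told apart in such libraries.

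A wild-type culture stood apart in these genes and in others of the same response. In passage 29 all 10 members were higher than the mean of passages 27 and 28 in both fractions, with a median difference of 0.70 (log2) in the nucleus and 0.83 in the cytoplasm, where the median over all genes tested was −0.16 and −0.11 and only 34.5% and 39.1% of genes were higher. ATF3 was 3.48-fold higher in the nucleus and 4.43-fold in the cytoplasm, EGR1 2.28-fold and 2.95-fold, JUNB 2.12-fold and 2.43-fold, and JUN 1.98-fold and 2.54-fold. FOSL1 differed least, by 1.11-fold and 1.17-fold. The 36 other immediate early genes on a list had a median of 0.44 and 0.54. The 15 or 16 measured AP-1 target genes had 0.87 and 0.71, whereas 19 upstream kinases and factors had −0.17 and −0.11. More than 2-fold higher were 40.0% and 43.8% of the targets and 30% and 40% of the members. The same held for 16.7% and 19.4% of the other immediate early genes and 2.68% and 2.66% of all genes tested. Every comparison with wild type holds this culture, so the counts, the medians and the called changes are given with and without its library.

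**Figure D1:**
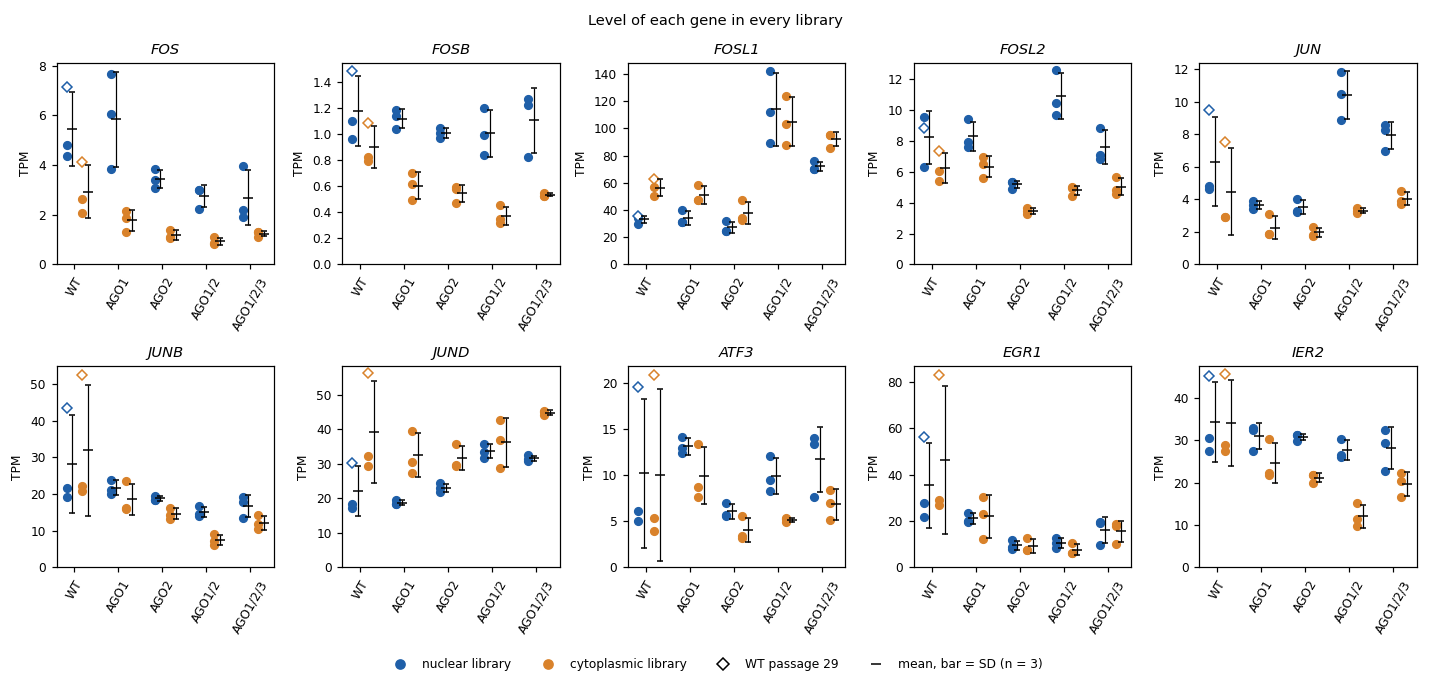
Level of each gene in TPM (vertical axis, linear from 0) in every library, by genotype (horizontal axis) and fraction (blue nuclear, orange cytoplasmic), with the mean and SD of 3 libraries as black bars. FOSL1 was above every wild-type library in the AGO1/2 and AGO1/2/3 knockouts, up to 142 TPM, and the open diamonds of wild-type passage 29 lie highest of the wild-type libraries for all 10 genes in the cytoplasm.

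Against wild type, the members moved in opposite directions rather than together. With all libraries, FOSL1 rose in the AGO1/2 and AGO1/2/3 knockouts in both fractions, and nuclear JUND rose with it. FOS and EGR1 fell, also with all libraries, in every line with an AGO2 edit in both fractions. With edgeR's quasi-likelihood test and Benjamini-Hochberg adjustment over all genes (a result counts as called up to 0.05), 0 of 10 members were called in nuclear AGO1 knockout, beside 29.9% of 18919 genes. In the AGO2 knockout 3 were called, all lower, beside 40.2%. In the AGO1/2 knockout 4 were higher and 3 lower, beside 67.6%, and in the AGO1/2/3 knockout 2 higher and 2 lower, beside 58.6%. In the cytoplasm, among 17605 genes, 0 members were called in the AGO1 knockout (12.4% of genes), 3 lower in the AGO2 knockout (16.1%), 1 higher and 5 lower in the AGO1/2 knockout (49.2%), and 1 higher and 4 lower in the AGO1/2/3 knockout (38.7%).

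The median log2 change of the 10 members was −0.36 in the nuclear AGO2 knockout and −0.78 in the cytoplasmic one, −0.13 and −0.51 in the AGO1/2 knockout, and 0.10 and −0.20 in the AGO1/2/3 knockout. Without wild-type passage 29 these medians were 0.14 and −0.26, 0.38 and −0.11, and 0.35 and 0.02, so that the nuclear AGO2 and AGO1/2 and the cytoplasmic AGO1/2/3 medians changed sign. With all libraries, medians over all genes lay between −0.06 and −0.00 in these comparisons. For the AGO1 knockout the members' medians were 0.09 and −0.27, or 0.41 and 0.02 without passage 29. In that line, with all libraries, 2 nuclear and 4 cytoplasmic members had an unadjusted edgeR p under 0.05, beside 7696 of 18919 and 4879 of 17605 genes. DESeq2 called 0 members in either fraction, and limma on log2(TPM + 1) called 1 and 2, with the shares of all genes not given here.

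Without wild-type passage 29 these counts changed. In the nuclear AGO1 knockout 5 members were then called, all higher (28.0% of genes), and in the cytoplasmic one 1 (10.2%). The AGO2 knockout gave 4 in the nucleus (40.3%) and 3 in the cytoplasm (15.5%), the AGO1/2 knockout 8 (66.9%) and 9 (50.5%), and the AGO1/2/3 knockout 5 (59.9%) and 6 (44.1%). ATF3 was the most frequent new call: it was called in 0 of 8 comparisons with all libraries (edgeR), and higher in 7 of 8 without that passage.

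**Figure D2:**
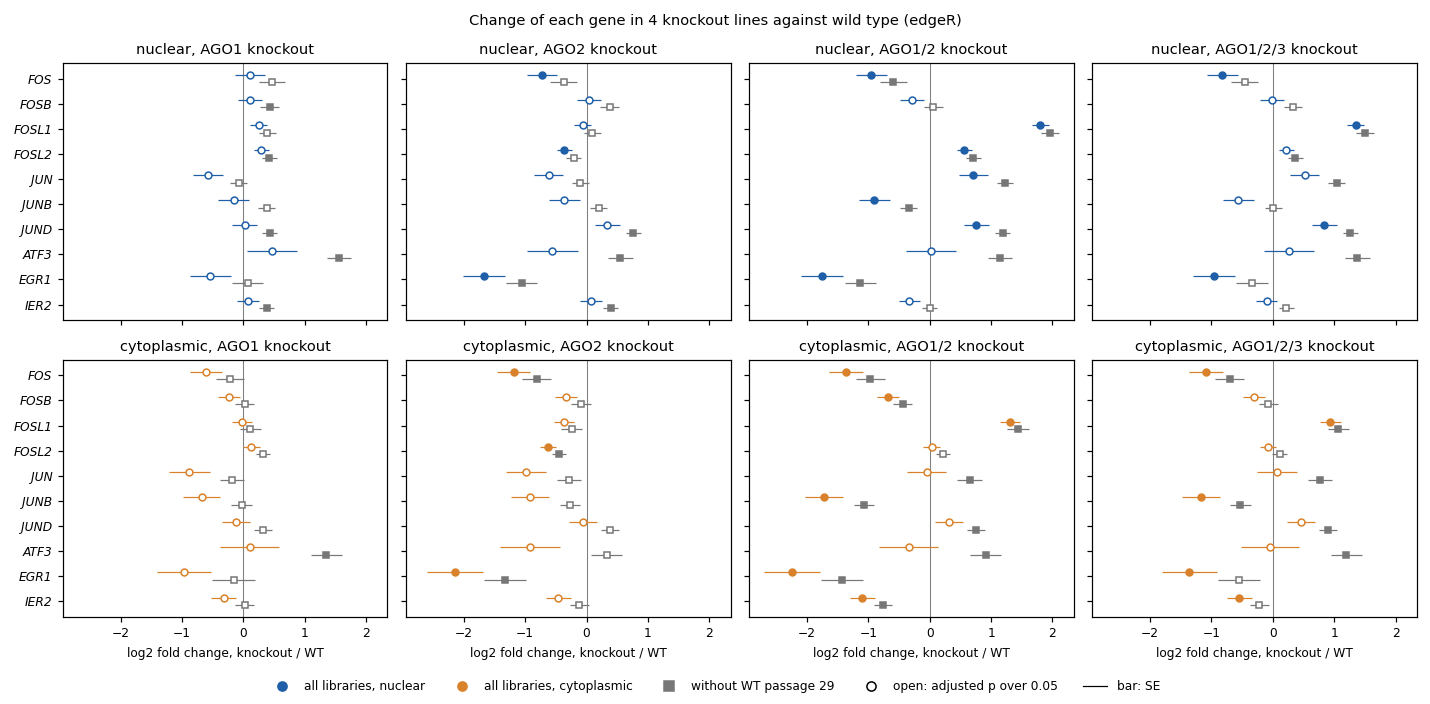
Log2 fold change of each gene (horizontal axis, bar = SE) in 4 knockout lines against wild type, nuclear in the upper and cytoplasmic in the lower row, with all libraries (coloured circles) and without wild-type passage 29 (grey squares); filled marks were called. FOSL1 stays right of 0 in the 4 panels of the AGO1/2 and AGO1/2/3 knockouts, 0.94 to 1.80 with all libraries, and the grey squares of ATF3 lie to the right of its circles.

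FOSL1, also called FRA-1, lacks the transactivation domain of FOS and is linked to invasive growth of carcinoma cells. Its gene lies on the − strand of chromosome 11 (chr11:65892049-65900573). In nuclear RNA it stood at 33.9, 29.9 and 35.3 TPM in wild type (libraries here and below in order of passage), at 112, 142 and 89.1 in the AGO1/2 knockout and at 75.9, 70.3 and 70.1 in the AGO1/2/3 knockout. All 6 libraries were above every wild-type library, and those of the single knockouts, at 24.6 to 39.9 TPM, overlapped wild type. The nuclear log2 change was 1.80 ± 0.14 (SE, 3.49-fold, edgeR adjusted p 2.9e-08) in the AGO1/2 knockout and 1.35 ± 0.138 (2.55-fold, adjusted p 8.38e-07) in the AGO1/2/3 knockout.

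In cytoplasmic RNA FOSL1 stood at 57.1, 49.9 and 62.4 TPM in wild type, 103, 124 and 87.9 in the AGO1/2 knockout and 95.0, 94.8 and 85.8 in the AGO1/2/3 knockout. Again no library of the combined knockouts overlapped wild type. The changes were 1.31 ± 0.168 (2.47-fold, adjusted p 1.77e-05) and 0.94 ± 0.167 (1.92-fold, adjusted p 0.000446). These 4 rises were called in every alternative and without any single library, with log2 values from 0.84 to 1.96 over the left-out libraries. Without wild-type passage 29 they were 1.96 and 1.5 in the nucleus and 1.44 and 1.07 in the cytoplasm. AGO1 and AGO2 single knockouts gave 0.25 ± 0.138 and −0.06 ± 0.138 in the nucleus and −0.02 ± 0.166 and −0.37 ± 0.166 in the cytoplasm, none of them called.

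FOSL2, or FRA-2 (chr2:28392448-28417317, + strand), the other FOS family member without that domain, showed a smaller change that differed in sign between lines. Nuclear levels were 9.54, 6.31 and 8.87 TPM in wild type, 5.33, 4.91 and 5.35 in the AGO2 knockout and 10.5, 12.6 and 9.67 in the AGO1/2 knockout. The AGO2 libraries were all below wild type and the AGO1/2 libraries all above it. The changes were −0.36 ± 0.125 (adjusted p 0.032) and 0.56 ± 0.123 (1.47-fold, adjusted p 0.000963). The first was lost without wild-type passage 29 (−0.21, adjusted p 0.176), without wild-type passage 27 (−0.32, 0.0944) and without passage 8 or 9 of the knockout (−0.38 and −0.26). The second was kept in every fit, at 0.46 to 0.71 over the left-out libraries and 0.71 without wild-type passage 29.

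In the cytoplasm FOSL2 stood at 6.06, 5.41 and 7.34 TPM in wild type and at 3.65, 3.27 and 3.48 in the AGO2 knockout, with no overlap. It fell there by 0.63 on the log2 scale (SE 0.137, 1.55-fold, adjusted p 0.00594), a call kept in every fit, with −0.45 (0.0181) without passage 29. The AGO1/2 knockout, at 5.00, 4.97 and 4.45 TPM, lay below all wild-type libraries per length, while the test on counts gave 0.03 ± 0.136 (adjusted p 0.86).

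FOS (chr14:75278826-75282230, + strand), the founding member of the family, was low in all libraries, at 0.831 to 7.65 TPM. Its nuclear level was 4.82, 4.36 and 7.14 TPM in wild type, 3.82, 3.09 and 3.41 in the AGO2 knockout, 2.22, 3.0 and 2.99 in the AGO1/2 knockout and 1.90, 2.20 and 3.96 in the AGO1/2/3 knockout. All 9 knockout libraries were below the lowest wild-type library, and the AGO1 knockout, at 7.65, 3.84 and 6.03, overlapped it. Log2 changes were −0.73 ± 0.248 (adjusted p 0.0294), −0.95 ± 0.247 (0.00318) and −0.82 ± 0.247 (0.0104, all edgeR).

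FOS in the cytoplasm stood at 2.62, 2.07 and 4.11 TPM in wild type and at 1.09, 1.07 and 1.40 in the AGO2 knockout, 0.831, 0.870 and 1.09 in the AGO1/2 knockout and 1.31, 1.11 and 1.29 in the AGO1/2/3 knockout. No library of these 3 lines reached the wild-type range. It fell by 1.19, 1.36 and 1.09 on the log2 scale (SE 0.274, 0.276 and 0.272; adjusted p 0.00863, 0.000903 and 0.00556), and these 3 calls were kept in every fit. Without passage 29 the cytoplasmic changes were −0.81, −0.97 and −0.70 (adjusted p 0.0337, 0.00355 and 0.0268). In the nucleus only the AGO1/2 call was kept in every fit. Without wild-type passage 29 the nuclear changes were −0.37 (adjusted p 0.197) in the AGO2 knockout, −0.59 (0.0262) in the AGO1/2 knockout and −0.46 (0.0836) in the AGO1/2/3 knockout. The nuclear AGO2 call was also lost without any 1 of the 3 AGO2 libraries (−0.79 to −0.67), and the nuclear AGO1/2/3 call without passage 11 or 12 of that line (−0.68 and −0.67).

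FOSB (chr19:45467995-45475179, + strand), the closest relative of FOS, was the least abundant member, at 0.320 to 1.49 TPM. In the nucleus its group means ran from 1.01 to 1.18 TPM and each group overlapped its neighbour in the order. In the cytoplasm it stood at 0.826, 0.794 and 1.09 TPM in wild type and 0.320, 0.346 and 0.455 in the AGO1/2 knockout, without overlap, a log2 change of −0.68 ± 0.18 (1.60-fold, adjusted p 0.00579) kept in every fit, and −0.44 (0.0316) without passage 29. The other 3 cytoplasmic changes lay between −0.34 and −0.23 and were not called.

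JUN (chr1:58776845-58784048, − strand) is the main dimer partner of the FOS proteins and a target of JNK kinases. It stood in nuclear RNA at 4.66, 4.80 and 9.48 TPM in wild type, 10.5, 11.8 and 8.85 in the AGO1/2 knockout and 8.29, 6.97 and 8.55 in the AGO1/2/3 knockout. Wild-type passage 29 fell among the knockout libraries and the other wild-type passages lay below all 6. The change was 0.71 ± 0.234 (adjusted p 0.0146) in the AGO1/2 knockout and 0.52 ± 0.235 (0.0674) in the AGO1/2/3 knockout. The first call was lost without wild-type passage 27 (0.53, adjusted p 0.0568) or 28 (0.55, 0.0563), and without passage 29 the changes were 1.23 ± 0.133 (7.72e-07) and 1.04 ± 0.133 (6.25e-06). AGO1 and AGO2 knockout nuclei, at 3.22 to 4.0 TPM, lay below every wild-type library, with changes of −0.58 and −0.62 that were not called (adjusted p 0.0826 and 0.0526).

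Cytoplasmic JUN was 2.89, 2.94 and 7.55 TPM in wild type, 3.46, 3.28 and 3.18 in the AGO1/2 knockout and 4.49, 3.89 and 3.74 in the AGO1/2/3 knockout. None of the 4 knockouts was called with all libraries. Without wild-type passage 29 the AGO1/2 and AGO1/2/3 knockouts were called higher, by 0.65 ± 0.197 (adjusted p 0.0132) and 0.77 ± 0.197 (0.00577).

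JUND (chr19:18279694-18281622, − strand), the JUN protein least dependent on stimulation, rose in the nuclei of the combined knockouts. Its nuclear TPM was 18.5, 17.1 and 30.3 in wild type, 35.8, 31.8 and 33.5 in the AGO1/2 knockout and 32.4, 30.8 and 31.5 in the AGO1/2/3 knockout. All 6 were above the highest wild-type library, though passage 29 at 30.3 was close to the lowest of them at 30.8. The changes were 0.76 ± 0.201 (1.70-fold, adjusted p 0.00352) and 0.84 ± 0.202 (1.79-fold, adjusted p 0.0022), kept in every fit, and without passage 29 they were 1.19 and 1.26. In the cytoplasm wild type spanned 29.3 to 56.2 TPM and enclosed the AGO1/2/3 knockout at 44.1 to 45.4. There the changes of 0.31 ± 0.229 and 0.46 ± 0.229 were not called with all libraries, and were called without passage 29 at 0.75 ± 0.145 and 0.90 ± 0.146.

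JUNB (chr19:12791486-12793315, + strand), which can oppose JUN at shared sites, fell in the AGO1/2 knockout in both fractions and in the AGO1/2/3 knockout in the cytoplasm. In nuclear RNA it stood at 21.7, 19.1 and 43.4 TPM in wild type and 14.1, 14.6 and 16.6 in the AGO1/2 knockout. No library overlapped, and the change was −0.90 ± 0.257 (1.87-fold, adjusted p 0.00587), or −0.34 ± 0.139 (0.0424) without passage 29. The nuclear AGO1/2/3 knockout, at 17.8, 13.4 and 19.1 TPM, gave −0.56 ± 0.256 (adjusted p 0.0739, not called), and 0.01 without passage 29. In the cytoplasm it stood at 22.2, 20.9 and 52.5 TPM in wild type, 7.20, 6.18 and 9.03 in the AGO1/2 knockout and 14.2, 10.4 and 11.9 in the AGO1/2/3 knockout. Both lines were below every wild-type library. JUNB fell there by 1.72 on the log2 scale (SE 0.311, 3.28-fold, adjusted p 0.000361) and by 1.17 (SE 0.305, 2.25-fold, 0.00714), and without passage 29 by 1.07 and 0.53, still called. The AGO1/2/3 call was lost with only the groups compared in the fit (−1.17, edgeR adjusted p 0.0501).

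ATF3 (chr1:212565334-212620777, + strand), a stress-response partner of the JUN proteins, had the widest wild-type range. Nuclear libraries were at 4.99, 6.15 and 19.5 TPM in wild type, 12.9, 12.4 and 14.1 in the AGO1 knockout, 5.53, 5.64 and 7.01 in the AGO2 knockout, 9.50, 12.1 and 8.25 in the AGO1/2 knockout and 14.0, 7.66 and 13.4 in the AGO1/2/3 knockout. Passage 29 was above all 12 knockout libraries, and the other wild-type passages were below the 9 libraries of the AGO1, AGO1/2 and AGO1/2/3 lines. With all libraries no change was called, from −0.56 ± 0.418 to 0.46 ± 0.409. Without passage 29 the rises were 1.56 ± 0.197 (adjusted p 5.3e-05), 0.55 ± 0.199 (0.0377), 1.14 ± 0.195 (9.3e-05) and 1.38 ± 0.196 (1.82e-05) in that order of lines.

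In the cytoplasm ATF3 stood at 5.38, 3.95 and 20.8 TPM in wild type, 8.71, 7.68 and 13.4 in the AGO1 knockout and 3.44, 3.15 and 5.57 in the AGO2 knockout. The AGO1/2 knockout lay at 4.87 to 5.37 and the AGO1/2/3 knockout at 5.11 to 8.41. Every knockout group lay inside the wild-type span or reached below it, and the changes, −0.92 to 0.10, were not called. Without passage 29 the AGO1, AGO1/2 and AGO1/2/3 knockouts were called higher, by 1.35, 0.91 and 1.20.

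EGR1 (chr5:138465479-138469303, + strand) had the largest falls of the 10 genes. Nuclear levels were 27.8, 21.9 and 56.3 TPM in wild type, 8.61, 8.07 and 11.9 in the AGO2 knockout, 8.29, 10.7 and 12.7 in the AGO1/2 knockout and 19.4, 9.73 and 19.1 in the AGO1/2/3 knockout. The 9 libraries were all below the lowest wild-type library. It fell by 1.67 on the log2 scale (SE 0.346, 3.18-fold, adjusted p 0.00145), 1.75 (SE 0.345, 3.36-fold, 0.000365) and 0.96 (SE 0.338, 1.94-fold, 0.024). The AGO1 knockout, at 20.0, 19.6 and 23.6 TPM, overlapped wild type, with a change of −0.54 ± 0.336 (adjusted p 0.247).

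Cytoplasmic EGR1 was 29.1, 27.0 and 82.8 TPM in wild type, 7.36, 7.46 and 12.5 in the AGO2 knockout, 6.16, 6.31 and 10.4 in the AGO1/2 knockout and 18.6, 10.2 and 17.7 in the AGO1/2/3 knockout, again without overlap. EGR1 fell by 2.14 (SE 0.459, 4.42-fold, adjusted p 0.00559), by 2.24 (SE 0.461, 4.71-fold, 0.00101) and by 1.36 (SE 0.447, 2.57-fold, 0.026) on the log2 scale. Without passage 29 the AGO2 and AGO1/2 falls were still called, at −1.06 and −1.13 in the nucleus and −1.33 and −1.43 in the cytoplasm, but the AGO1/2/3 change was −0.34 (adjusted p 0.266) and −0.55 (0.22). Leaving out passage 12 of the AGO1/2/3 line also ended its call (−0.70 nuclear, −1.12 cytoplasmic), as did passage 14 in the cytoplasm (−1.47, adjusted p 0.0516).

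IER2 (chr19:13150411-13154911, + strand) was called in the cytoplasm and not in the nucleus with all libraries, though the difference between fractions was itself not called in that fit. With passage as a replicate block it was called in all 4 lines. In the nucleus its groups overlapped throughout, with means of 27.7 to 34.3 TPM. In the cytoplasm it stood at 29.0, 27.5 and 45.7 TPM in wild type, 11.5, 9.73 and 15.1 in the AGO1/2 knockout and 22.2, 16.7 and 20.4 in the AGO1/2/3 knockout. Neither line overlapped wild type. It fell by 1.10 on the log2 scale (SE 0.206, 2.14-fold, adjusted p 0.000468) in the AGO1/2 knockout, kept in every fit (−0.76 without passage 29), and by 0.55 (SE 0.204, 1.47-fold, 0.0436) in the AGO1/2/3 knockout. The second call was lost without wild-type passage 29 (−0.22, adjusted p 0.269) and without passage 11, 12 or 14 of that line (−0.63, −0.43 and −0.59).

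Comparisons among knockout lines do not hold the wild-type libraries. In the nucleus 6 members were called between the AGO1/2 and the AGO1 knockout (61.2% of genes), 3 between the AGO1/2 and the AGO2 knockout (54.4%) and 0 between the AGO1/2/3 and the AGO1/2 knockout (3.48%). In the cytoplasm the counts were 7 (54.3%), 5 (45.8%) and 0 (4.95%). FOSL1 was higher in the AGO1/2 knockout than in either single knockout in both fractions, by 1.55 ± 0.138 and 1.86 ± 0.139 in the nucleus and 1.32 ± 0.168 and 1.68 ± 0.169 in the cytoplasm (adjusted p at most 1.13e-05). JUN was higher in all 4 as well, by 1.29 and 1.33 in the nucleus (adjusted p 0.000234 and 0.00024) and 0.83 and 0.94 in the cytoplasm (0.0433 and 0.0292). Both cytoplasmic JUN calls were lost with limma on log2(TPM + 1) (0.42 and 0.55, adjusted p 0.162 and 0.0886) and log2(TPM + 0.1) (0.57 and 0.74, 0.12 and 0.0585), and the one against the AGO1 knockout with DESeq2 (0.83, 0.0516). Both were also lost without passage 9 or 10 of the AGO1/2 line (0.79 to 0.90). The one against the AGO1 knockout was also lost without passage 11 of the AGO1/2 line (0.89) or passage 6 or 7 of the AGO1 line (0.70 and 0.71), and the one against the AGO2 knockout without passage 8 or 9 of that line (0.86 and 0.87).

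Against the AGO1 knockout, the AGO1/2 knockout had less FOS (−1.06 nuclear, −0.75 cytoplasmic), JUNB (−0.74 and −1.04) and EGR1 (−1.21 and −1.26) in both fractions, and less cytoplasmic FOSB (−0.45) and IER2 (−0.78). Nuclear JUND was higher by 0.74 (adjusted p 0.00465). Of these, the cytoplasmic FOS, FOSB and EGR1 calls and the nuclear JUNB call were lost without passage 8 of the AGO1 line (−0.59, −0.36, −0.97 and −0.61), without passage 9 of the AGO1/2 line (−0.74, −0.35, −1.14 and −0.68) and without its passage 10 (−0.73, −0.45, −1.18 and −0.70). The 3 cytoplasmic calls were lost without passage 7 of the AGO1 line too (−0.67, −0.42 and −1.21), and FOS without passage 11 of the AGO1/2 line (−0.80). Against the AGO2 knockout, FOSL2 was higher by 0.92 (1.88e-05) in the nucleus and 0.67 (0.00106) in the cytoplasm, and cytoplasmic IER2 (−0.64, 0.0185) and JUNB (−0.80, 0.0456) were lower. The JUNB call was lost without any 1 of the 6 libraries (−0.91 to −0.69), and the IER2 call without passage 9 or 10 of the AGO1/2 line or passage 10 of the AGO2 line (−0.61, −0.55 and −0.60).

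Between the triple and the double knockout, 3 nuclear and 2 cytoplasmic members had an unadjusted edgeR p under 0.05. Of all genes, 4740 of 18919 and 4020 of 17605 did. DESeq2 called 2 and 1 members, and limma on log2(TPM + 1) called 2 and 0, with the shares of all genes not given here. The largest of these edgeR differences relative to its error was that of nuclear FOSL1 (−0.45 ± 0.134, adjusted p 0.0676), lower in the triple knockout at 70.1 to 75.9 TPM against 89.1 to 142 without overlap.

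Each fraction's share of a message was compared within genotype. FOSL1 and JUND were lower in nuclear than in cytoplasmic RNA, relative to all genes, in all 5 genotypes. On TMM-scaled counts of 20104 genes, 6 members were called in wild type (76.8% of genes), 3 in the AGO1 knockout (74.5%), 2 in the AGO2 knockout (73.4%), 2 in the AGO1/2 knockout (68.6%) and 2 in the AGO1/2/3 knockout (70.2%). FOSL1 had a nuclear-minus-cytoplasmic log2 difference of −1.34 ± 0.162 in wild type and of −1.05, −1.02, −0.91 and −1.01 in the knockouts (adjusted p at most 1.4e-05). JUND had −1.53 ± 0.23 in wild type and −1.37, −1.11, −1.15 and −1.22 in the knockouts (at most 9.1e-05). The nuclear markers MALAT1 and NEAT1 were called higher and the cytoplasmic marker GAPDH lower in nuclear RNA in all 5 genotypes. ACTB, also chosen as a cytoplasmic marker, was called higher in nuclear RNA in all 5.

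These values depend on the scale. On log2(TPM + 1), where the median difference over all genes was 0.24 to 0.48, FOSL1 gave −0.75, −0.58, −0.46, 0.11 and −0.34 and JUND −0.79, −0.75, −0.43, −0.09 and −0.49, in the order wild type, single AGO1, single AGO2, double and triple knockout. In the AGO1/2 knockout neither was called on that scale and FOSL1 changed sign, and in the AGO1/2/3 knockout the FOSL1 call was lost (limma adjusted p 0.0578). The AGO1/2 knockout libraries overlapped between fractions in TPM for both genes, while in the other 4 genotypes the FOSL1 libraries did not.

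In wild type, nuclear FOSL2 (−0.40 ± 0.134), JUNB (−0.74 ± 0.294), EGR1 (−0.95 ± 0.417) and IER2 (−0.49 ± 0.197) were also lower. On log2(TPM + 1) the direction turned for FOSL2, which was called higher in the nucleus (0.34, limma adjusted p 0.0187), and IER2 was at 0.02. All 4 calls were lost with RLE scaling and with only the wild-type libraries in the fit, and all but FOSL2 with DESeq2. All 4 were also lost without the cytoplasmic library of passage 29 (−0.23, −0.12, −0.16 and −0.18), and without nuclear passage 28 (−0.27, −0.51, −0.68 and −0.34), and all but FOSL2 without nuclear passage 27 (−0.56, −0.78 and −0.40). In wild type the same-numbered nuclear and cytoplasmic libraries deviated together, and with passage as a replicate block 7 members were called (80.3% of genes): FOSL1 −1.34, JUND −1.51, EGR1 −0.86, JUNB −0.70, ATF3 −0.50, IER2 −0.48 and FOSL2 −0.39. With both passage 29 libraries left out 5 were called (73.5%), EGR1 no longer among them (−0.70, adjusted p 0.0933). The AGO1 knockout added FOS, higher in the nucleus by 0.71 ± 0.264 (adjusted p 0.0184), a call lost without either passage 6 library (0.61 and 0.48).

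**Figure D3:**
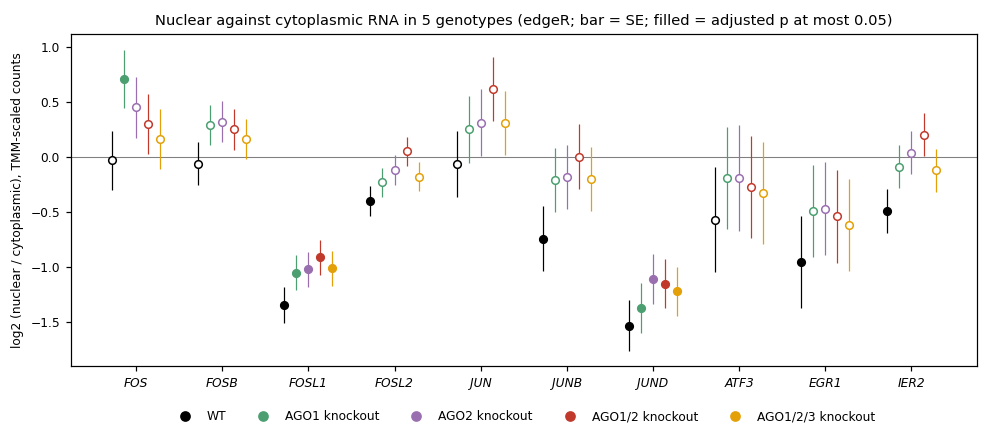
Log2 ratio of nuclear to cytoplasmic RNA on TMM-scaled counts (vertical axis, bar = SE) for each gene in 5 genotypes; filled circles were called. FOSL1 (−1.34 to −0.91) and JUND (−1.53 to −1.11) are filled and below 0 in every genotype.

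Whether a knockout changed nuclear and cytoplasmic RNA by different amounts was tested as an interaction. No member was called in the AGO1 knockout (0.662% of genes), the AGO2 knockout (5.76%), the AGO1/2 knockout (36.5%) or the AGO1/2/3 knockout (22.7%) by edgeR, and DESeq2 also called 0, while limma on log2(TPM + 1) called 7 in the AGO1/2 knockout and 0 in the others. The shares of all genes under DESeq2 and limma are not given here. At an unadjusted edgeR p under 0.05 there were 2 members in the AGO1/2 knockout, beside 9066 of 20104 genes. They were IER2 (0.69 ± 0.278, adjusted p 0.0524) and FOSL2 (0.45 ± 0.188, 0.063). The other lines had 0 members, beside 2833 (AGO1), 4266 (AGO2) and 6906 (AGO1/2/3) genes. With passage as a replicate block 3, 5, 6 and 5 members were called (6.27%, 18.0%, 46.4% and 34.9% of genes). IER2 was called in all 4 lines (0.41, 0.52, 0.69 and 0.36, edgeR adjusted p 0.0139, 0.00114, 5.01e-06 and 0.00339), as were JUNB (0.49 to 0.70) and FOSL1 (0.29 to 0.42). In wild type every same-numbered pair of libraries deviated together, while in each knockout line at least 1 pair did not pass that check. In the fit without the block, all 40 differences were above 0, nuclear change above cytoplasmic, with medians of 0.32 to 0.42 over the members and −0.04 to 0.06 over all genes. The 4 lines share the same wild-type libraries, so they do not show that direction independently. In the same fit the interaction of the nuclear marker MALAT1 was called lower in all 4 lines. That of NEAT1 was lower in the AGO1/2 and AGO1/2/3 lines, that of GAPDH higher in all but the AGO1 line, and that of ACTB not called. The part of these marker shifts in the members' differences was not tested.

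The transcripts counted for a gene differed between fractions. The coding transcript FOS-201 made up 42.6% ± 6.51 (SD, n = 3) of the gene's TPM in wild-type nuclei and 77.4% ± 1.03 in cytoplasm, and 28.6% to 47.2% against 65.0% to 77.4% over the 5 genotypes. ATF3-202 made up 30.3% ± 9.02 and 62.6% ± 9.31 in wild type, and in the knockouts 25.4% to 50.1% in nuclei against 73.4% to 94.9% in cytoplasm. The ATF3-208 transcript, annotated with a retained intron, held 11.3% to 16.5% of ATF3 TPM in nuclei and 2.85% to 3.85% in cytoplasm.

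FOSL1-201 took similar shares in both compartments, with group means of 71.4% to 77.7% and 74.3% to 78.9%. FOSL2-201 ran from 80.0% to 88.8% in nuclei and 96.7% to 98.3% in cytoplasm. JUN, JUNB and EGR1 had 1 deposited transcript each.

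**Figure D4:**
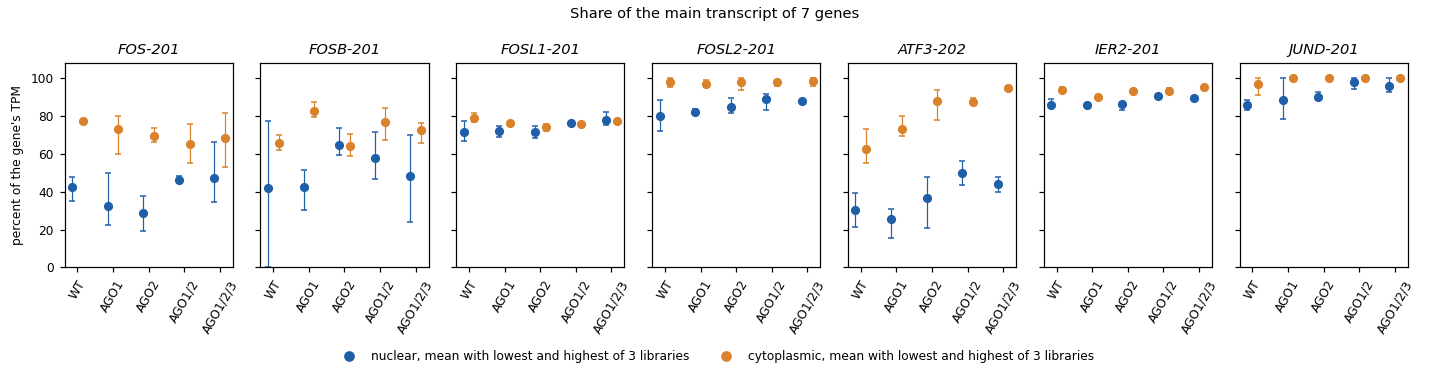
Share of the main transcript in its gene's TPM (vertical axis, percent) for 7 genes by genotype, nuclear in blue and cytoplasmic in orange; points are means and bars span the lowest to the highest of 3 libraries. FOS-201 and ATF3-202 lie lower in nuclei in every genotype, while FOSL1-201 does not separate.

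The spread between passages of a line was wider at the median for these genes than for all genes. The median within-group SD of log2 levels was 0.259 for members and 0.19 for all genes in the nucleus, and 0.297 and 0.167 in the cytoplasm. Over the knockout groups alone it was 0.184 against 0.164 and 0.231 against 0.141. ATF3, EGR1 and FOS had the widest nuclear spread (0.539, 0.452 and 0.389), wider than 95.2%, 91.4% and 86.9% of genes, or 80.4%, 87.4% and 89.9% over the knockout groups. Over those groups 5 members lay below the middle of all genes in the nucleus, JUND lowest (wider than 2.27% of genes) and JUN, FOSL2, IER2 and JUNB at 48.1% to 49.8%. In the cytoplasm FOSL2 did (41.6%).

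For several members that spread was shared by the fractions of a passage. Over 15 cultures, the deviation from the group mean in the nucleus was correlated with that in the cytoplasm for FOSL1 (Pearson r 0.94, within-genotype permutation p 0.000257, adjusted 0.00257 over 10 genes; Spearman 0.94, permutation p 0.00103, adjusted 0.009). Of the 15 cultures, 14 deviated in the same direction, and without the 2 cultures farthest from the median r was 0.95. EGR1 gave r 0.87 (permutation p 0.00129, adjusted 0.00643; Spearman 0.84, p 0.0018, adjusted 0.009; 0.79 without the farthest) and JUNB 0.92 (permutation p 0.00592, adjusted 0.0197; Spearman 0.90, p 0.00694, adjusted 0.0174; 0.77 without the farthest). ATF3, JUN and IER2 gave 0.89, 0.87 and 0.81 (permutation p 0.0111, 0.0122 and 0.0184, adjusted 0.0244, 0.0244 and 0.0306; Spearman 0.86, 0.75 and 0.80, adjusted p 0.0124, 0.0249 and 0.0319), and 0.77, 0.64 and 0.69 without the farthest cultures, wild-type passage 29 among them each time.

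JUND (0.81, permutation p 0.0431, adjusted 0.0615; Spearman 0.74, adjusted 0.0397; 0.50 without the farthest) and FOSL2 (0.67, permutation p 0.0644, adjusted 0.0805; Spearman 0.68, adjusted 0.049) passed the threshold by rank alone. FOS (0.23, permutation p 0.505) and FOSB (0.27, permutation p 0.399) showed no detectable relation at their low levels.

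**Figure D5:**
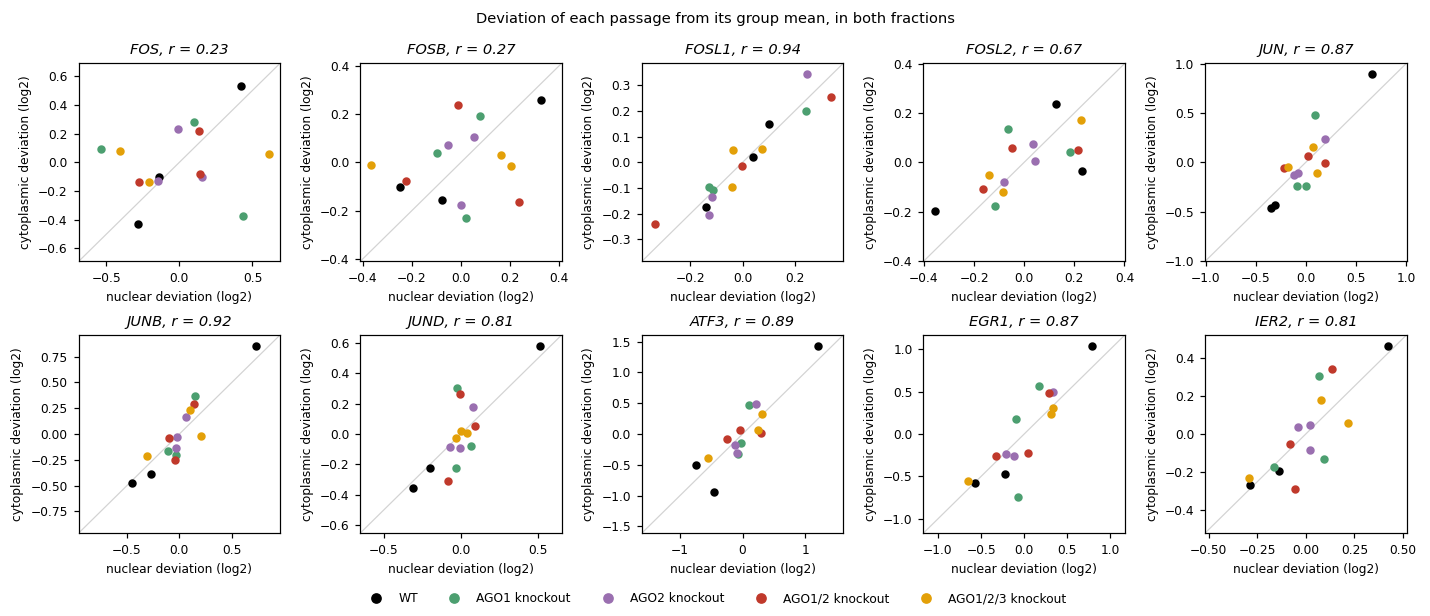
Deviation of each passage from its group mean on log2(TPM + 0.1), nuclear (horizontal axis) against cytoplasmic (vertical axis), for 15 cultures coloured by genotype; the grey line marks equal deviation. FOSL1 (r = 0.94) and JUNB (r = 0.92) lie along the line, FOS (r = 0.23) and FOSB (r = 0.27) do not.

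Over all 30 libraries, centred within fraction, the members fell into patterns that cross the family names. JUNB went with IER2 (r 0.96), EGR1 (0.87) and FOS (0.85), and JUN with JUND (0.85) and FOSL1 (0.75), whereas FOSL1 ran against JUNB (−0.48), FOS (−0.46) and IER2 (−0.42). These are descriptions over libraries that share lines and passage 29. Among 13041 other genes with a mean of at least 1 TPM, the most alike were S100A10 for FOSL1 (r 0.976), IER3 for JUNB (0.968), SH2B3 for JUN (0.966), PINK1 for JUND (0.946), CTH for IER2 (0.936), KDM7A for EGR1 (0.928), FEM1C for FOSL2 (0.910), PHGDH for FOSB (0.892), HBEGF for ATF3 (0.874) and TSC22D1 for FOS (0.869).

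With all libraries, the other 36 immediate early genes on the list also split. In nuclei 10 were higher and 5 lower in the AGO1 knockout, 7 and 10 in the AGO2 knockout, 11 and 12 in the AGO1/2 knockout and 13 and 7 in the AGO1/2/3 knockout. The nuclear medians were −0.10, −0.16, −0.08 and 0.04. In the cytoplasm falls were more numerous, with 2 higher and 8 lower, 1 and 15, 8 and 17, and 7 and 12 (medians −0.27, −0.48, −0.40 and −0.24, beside −0.01 to −0.00 for all genes). Without wild-type passage 29 rises outnumbered falls in every nuclear comparison, with 14 and 2, 13 and 7, 17 and 8, and 18 and 5 (medians 0.21, 0.21, 0.22 and 0.27). The cytoplasmic counts were then 6 and 5, 2 and 13, 13 and 14, and 13 and 8 (medians 0.03, −0.16, −0.15 and 0.18). Of all genes, 29.9%, 40.2%, 67.6% and 58.6% were called in nuclei and 12.4%, 16.1%, 49.2% and 38.7% in cytoplasm with all libraries. Without that passage the shares were 28.0%, 40.3%, 66.9% and 59.9%, then 10.2%, 15.5%, 50.5% and 44.1%. EGR3, a relative of EGR1, fell in all 4 lines in the nucleus (mean log2 change −1.67), and SGK1, a serum-induced kinase, in all 4 in the cytoplasm (−1.33). BTG2, an antiproliferative gene, was higher in all 4 nuclear comparisons (mean 0.62).

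Of 19 kinases and factors upstream of these promoters, 13 were higher and 3 lower in nuclear AGO1/2 knockout and 12 and 4 in AGO1/2/3 knockout, with 10 and 3, and 7 and 2, in the cytoplasm. The single knockouts gave 5 and 4 (AGO1) and 8 and 3 (AGO2) in nuclei, and 0 and 1, and 2 and 0, in cytoplasm. Of all genes, 67.6% and 58.6% were called in the nuclei of the double and triple knockouts and 49.2% and 38.7% in their cytoplasm. In the single AGO1 and AGO2 knockouts the shares were 29.9% and 40.2% in nuclei and 12.4% and 16.1% in cytoplasm. Without passage 29 the nuclear counts were 5 and 4, 9 and 3, 13 and 3, and 12 and 3, and the cytoplasmic ones 1 and 1, 1 and 0, 11 and 3, and 9 and 2, in the order single AGO1, single AGO2, double and triple knockout. MAP2K1 (mean 0.54), SRF (0.47) and MAP2K2 (0.43) were higher in the nuclei of all 4 lines. SRF messages were higher by 0.64 in nuclear AGO1/2 knockout and EGR1 messages were lower there. Binding of SRF at the CArG letters shown for EGR1 was not measured, and a link between these genes was not tested.

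Of 20 AP-1 target genes on a list, 15 were measured in nuclei and 16 in cytoplasm. In nuclei 7 were higher and 3 lower in the AGO1/2 knockout and 6 and 1 in the AGO1/2/3 knockout, against 5 and 2 in the AGO2 and 0 and 4 in the AGO1 knockout. In the cytoplasm the counts were 0 and 3 (AGO1), 1 and 5 (AGO2), 2 and 4 (AGO1/2) and 2 and 2 (AGO1/2/3). Of all genes, 29.9% (AGO1), 40.2% (AGO2), 67.6% (AGO1/2) and 58.6% (AGO1/2/3) were called in nuclei. The cytoplasmic shares were 12.4%, 16.1%, 49.2% and 38.7%. CCND1, the cyclin D1 gene, was higher by 1.97 in nuclear and 1.25 in cytoplasmic AGO1/2 knockout, while the integrin gene ITGA2 was lower (−2.02 and −2.71). Without passage 29 the nuclear counts were 5 and 1, 8 and 1, 9 and 1, and 11 and 1, in the order single AGO1, single AGO2, double and triple knockout. The cytoplasmic ones were then 1 and 2, 2 and 2, 5 and 2, and 6 and 2.

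Among 14 measured of 16 other leucine zipper partners, CREB5 was lower in all 4 lines in both fractions with all libraries (mean −3.29 and −2.94). Its level was low, 0.195, 0.304 and 2.14 TPM in wild-type nuclei. ATF1 was higher in the AGO1/2 and AGO1/2/3 knockouts in both fractions, by 0.84 and 0.59 in nuclei and 0.52 and 0.32 in cytoplasm. Counts of higher and lower genes for the list were 0 and 3, 1 and 3, 5 and 2, and 6 and 3 in nuclei and 0 and 4, 0 and 2, 3 and 2, and 3 and 3 in cytoplasm, in the same order of lines. Without passage 29 these were 0 and 3, 4 and 2, 8 and 2, and 8 and 3, then 0 and 1, 0 and 0, 8 and 1, and 8 and 3. CREB5 was thus no longer called in the cytoplasmic AGO2 knockout without that passage. Of 8 proteins that bind AU-rich elements, 4 were higher and 1 lower, 3 and 2, 4 and 2, and 3 and 2 in nuclei. In the cytoplasm there were 0 and 0, 1 and 1, 0 and 3, and 0 and 2. Without passage 29 these were 4 and 1, 3 and 2, 3 and 2, and 3 and 2, then 1 and 1, 1 and 1, 0 and 4, and 0 and 4. With all libraries, the shares of all genes called were 29.9%, 40.2%, 67.6% and 58.6% in nuclei and 12.4%, 16.1%, 49.2% and 38.7% in cytoplasm. ZFP36L1, which promotes decay of such messages, was lower in the cytoplasm of AGO2, double and triple knockouts (−0.98, −0.80 and −0.72), and KHSRP was higher in all 4 nuclear comparisons (mean 0.56).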

How the data were processed

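Per the labels and the study's methods, reads were aligned with STAR and quantified with Salmon. The submitters' processing notes give STAR 2.5.3a and Salmon 0.11.0, and the study's methods name other versions of both, so the versions behind the files are uncertain. The authors deposited 1 table per library with estimated counts and TPM for each of 200401 Ensembl transcripts, both as Salmon wrote them. Of these, 195887 (97.75%) matched GENCODE 44 by identifier and were summed to genes. The 4514 unmatched transcripts held 2.23% to 4.01% of the reads and were left out of the tests. Gene coordinates are those of GENCODE 44 on GRCh38.

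Gene sums of the deposited estimated counts were rounded to whole numbers, filtered with filterByExpr (minimum count 10), scaled with TMM and tested with edgeR 4.0.16 (R 4.3.3) by quasi-likelihood. Each fraction was fitted with all 5 genotypes, and 1 fit over 30 libraries gave nuclear against cytoplasmic differences and the interactions. The p-values were Benjamini-Hochberg adjusted over all genes tested. Alternatives used DESeq2 1.42.0, limma 3.58.1 on the deposited TPM (log2 with 0.1 or 1 added), other scaling and filters, counts scaled by transcript length, fewer groups and each library left out. The fits were tested on simulated data. Group differences in TPM can also be read against an exact permutation test, whose smallest p with 3 against 3 is 0.1.

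The 10 members and the other gene lists were chosen with earlier results of these data known. Of the other lists, up to 3 genes per list and fraction were named, those called the same way in the most knockouts and then with the largest mean change. The 10 members are all given. Likeness was Pearson's r on log2(TPM + 0.1) centred within fraction. Leaving out both wild-type passage 29 libraries together was added after the data were seen.

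Nuclear and cytoplasmic libraries carry the same passage numbers in the labels. Over 16723 genes, the deviations of same-numbered libraries from their group means were correlated in wild type (0.236, 0.229 and 0.515), all above 0.1. In each knockout line at least 1 pair was below it (−0.016 to 0.318 over the 12 pairs). FOSB, FOS and ATF3 had the fewest reads (at least 102, 154 and 221 in a library). Standard errors of the changes against wild type were largest for ATF3 (0.407 to 0.484) and EGR1 (0.336 to 0.461).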

Additional observations from a re-analysis of the deposited data

Results flagged for a closer look

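FOSL2 in the AGO1/2 knockout was picked out because its fractions went in opposite directions per length. All 3 nuclear libraries (9.67 to 12.6 TPM) were above the wild-type range of 6.31 to 9.54 TPM, and all 3 cytoplasmic libraries (4.45 to 5.00 TPM) were below the wild-type range of 5.41 to 7.34 TPM. The interaction on counts was 0.45 ± 0.188 (SE), with an unadjusted p of 0.0245 in the edgeR fit and an adjusted p of 0.063, so the difference was not called there. With passage as a replicate block it was 0.44 ± 0.0759 (edgeR adjusted p 0.000121).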

How the results depend on the processing

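Of 64 called results for members, 40 were kept under every alternative and every left-out library, 20 were lost without at least 1 library and 19 under at least 1 other alternative. All 8 FOSL1 calls between genotypes were among those kept. Direction changed in 3 results, all nuclear against cytoplasmic on log2(TPM + 1): FOSL2 (0.34, itself called, adjusted p 0.0187) and IER2 (0.02) in wild type and FOSL1 (0.11) in the AGO1/2 knockout. The cause was not tested. The median over all genes ran from −0.06 to 0.09 between comparisons as reported, −0.13 to 0.14 with DESeq2 or RLE, −0.20 to 0.48 on log2(TPM + 1) and −0.36 to 0.15 on log2(TPM + 0.1).

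Counts of members called moved as follows. The shares of all genes called under these settings, and with single libraries left out, are not given here. The counts therefore show only how the calls moved between settings. DESeq2 gave 2 (nuclear) and 1 (cytoplasmic) for the triple against the double knockout and 3 for wild-type fractions, where RLE gave 2. Counts scaled by length gave 1 in the nuclear AGO2 knockout and 1 interaction in the AGO1/2 knockout, as did leaving out both passage 29 libraries (1). On log2(TPM + 0.1), limma gave 1 in the nuclear and 1 in the cytoplasmic AGO1 knockout, 8 in the cytoplasmic AGO2 knockout, and 2 and 1 for triple against double knockout. On log2(TPM + 1) it gave 1, 2, 8 and 2 (nuclear triple against double), 7 interactions in the AGO1/2 knockout, and for fractions 6, 7, 6 and 6 in the single AGO1, single AGO2, double and triple knockouts. With no filter on low counts there were 3 in the nuclear AGO1, 5 in the AGO2 and 7 in the AGO1/2/3 knockout, 7 for nuclear AGO1/2 against AGO2, 3 and 1 for triple against double, 1 and 5 in the cytoplasmic AGO1 and AGO2 knockouts and 5 interactions in the AGO1/2 knockout. Fitting only the groups compared gave 10 for nuclear AGO1/2 against AGO1, 8 against AGO2, 2 in the cytoplasmic AGO1/2/3 knockout, 2 for wild-type fractions and 4 for AGO2 fractions. By share of reads in place of TPM, FOS-201 held 65.3% (nuclear) and 92.5% (cytoplasmic) in wild type and ATF3-202 40.4% and 79.7%.

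With 1 library left out, counts ran from 0 to 5 in the nuclear AGO1 knockout, 1 to 4 in AGO2 and 2 to 5 in AGO1/2/3, and in the cytoplasm from 0 to 1, 3 to 5 and 3 to 6. They ran from 0 to 2 for nuclear triple against double, 3 to 6 and 2 to 4 for cytoplasmic AGO1/2 against AGO1 and AGO2, 2 to 7 for wild-type fractions, and 0 to 5 and 0 to 1 for interactions in the AGO1/2 and AGO1/2/3 knockouts.

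With the replicate block, fractions gave 8 members in the single AGO1 knockout and 7 each in the single AGO2, double and triple knockouts, and interactions 3, 5, 6 and 5 in that order of lines, beside 6.27%, 18.0%, 46.4% and 34.9% of genes. No called result was lost with it. In no knockout line did all 3 same-passage pairs of libraries correlate above 0.1, though 5 of 12 pairs did.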
